A study of Equus caballus with 23 samples.

Results

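In needle biopsies of the gluteus medius, the large hindquarter muscle of the horse, 75 genes had a lower level after the gallop phase of race training than both before training and at the end of the racing season. These genes were chosen by their measured values. Each gene's level was the log2 of its CPM (the gene's count as a share of all counts of its library after normalization, on the usual CPM scale), and the median over the libraries of each time point was taken. A gene was kept where the median before training was at least 1.5, where the median after the gallop phase lay at least 0.7 below each of the other medians, and where the authors' tables gave it a symbol. The smaller of those gaps is called the dip here. Symbols of the myosin, troponin, tropomyosin, actinin, myosin-binding, phosphoglycerate mutase, enolase, lactate dehydrogenase and collagen families were left out by the same rule. The 75 genes were drawn from 26991 genes in the count table, of which 11545 passed a filter on low counts and 8842 of those had a symbol, and all 75 passed that filter.

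The study followed Arabian horses through race training, in 23 RNA sequencing libraries made from whole biopsies at 3 time points. T0 holds 5 untrained horses of 2.5 years (3 males and 2 females, libraries m8, m9, m10, m12 and m13). T1 holds 8 horses of 3 years sampled when the intense gallop work was done and before the flat races began (4 males and 4 females, libraries m1 to m7 and m11). T2 holds 10 horses of 3 years at the close of the racing season (7 males and 3 females, libraries m14 to m23). The age of 2.5 years occurs only at T0, so age and training cannot be told apart in any comparison with T0. Repeat sampling of the same horse is neither stated nor denied in the labels. The libraries were therefore compared as unpaired, and a p-value reflects only how far these libraries spread. In whole biopsies, fewer cells of a type and less RNA per cell cannot be told apart.

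Skeletal muscle is a mix of slow fibres, which rely on mitochondria, and fast fibres, which hold high levels of glycolytic enzymes and of the fast calcium pump. Fast fibres turn over ATP quickly and keep it supplied through adenylate kinase, AMP deaminase, phosphocreatine and glycolysis, and they export the lactate that results. Race training of horses is known to shift the fibre mix and the enzymes of both systems.

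Library totals ran from 12604125 to 17477172 counts at T0, from 15417737 to 23641809 at T1 and from 12185608 to 19804694 at T2. No pair of libraries held identical values. As a check of the tissue, the 15 measured genes of a fast fibre list summed to 54514 to 119170 CPM at T0, 5351 to 60287 CPM at T1 and 55233 to 130319 CPM at T2. The 17 genes of a slow fibre list summed to 10885 to 39627 CPM at T0, 36348 to 150209 CPM at T1 and 14179 to 51914 CPM at T2. The lowest fast sum and the highest slow sum were in the same T1 library, m3, a male, which stands apart from the other T1 libraries. Only some results, named where they occur, are also given without it.

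The dips of the 75 genes ran from 0.72 to 2.48, with a median of 0.91, and 28 genes had a dip of at least 1. Of all genes past the 3 thresholds, 98 in number, 11 had no symbol and 12 were left out by symbol (MYL1, PGAM2, TPM1, MYLPF, ACTN3, ENO3, MYBPC2, MYBPH, LDHA, MYH2, TNNT3 and COL1A2). Just inside the threshold of 0.7 were TMEM41A and PI16, both with a dip of 0.72, and just outside it were POPDC2 and EXD2, both at 0.69. Just inside the T0 threshold of 1.5 were FIGF at 1.58 and THRSP at 1.87 log2 CPM, and just outside it were SLC47A1 at 1.40 and TEX30 at 1.28. All 75 genes are annotated as protein-coding, and they lie on 27 chromosomes.

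The rule used the comparisons of T1 with both other time points, so the following counts describe the choice and nothing is read from them. By edgeR's quasi-likelihood test with Benjamini-Hochberg adjustment over all genes tested, 48 of the 75 genes were called lower at T1 than at T0 at an adjusted p under 0.05, against 3.34% of all 11545 genes. At T2, 65 of the 75 genes were called higher than at T1, against 12.6% of all genes. Every T1 library lay below every T0 library for 18 of the 75 genes, against 1.12% of all genes, and below every T2 library for 10 of the 75, against 0.788%. Both held for 6 genes (SPATS2, LMBR1L, ATP2A1, OAT, FAM69A and PLA2G7), against 0.234% of all genes. For 66 of the 75 genes the lowest of the 23 libraries was a T1 library. EGR1, an immediate early transcription factor, met the rule by its medians while its fitted mean was higher at T1 than at T0, with 115 CPM in the T1 library m6.

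**Figure D1:**
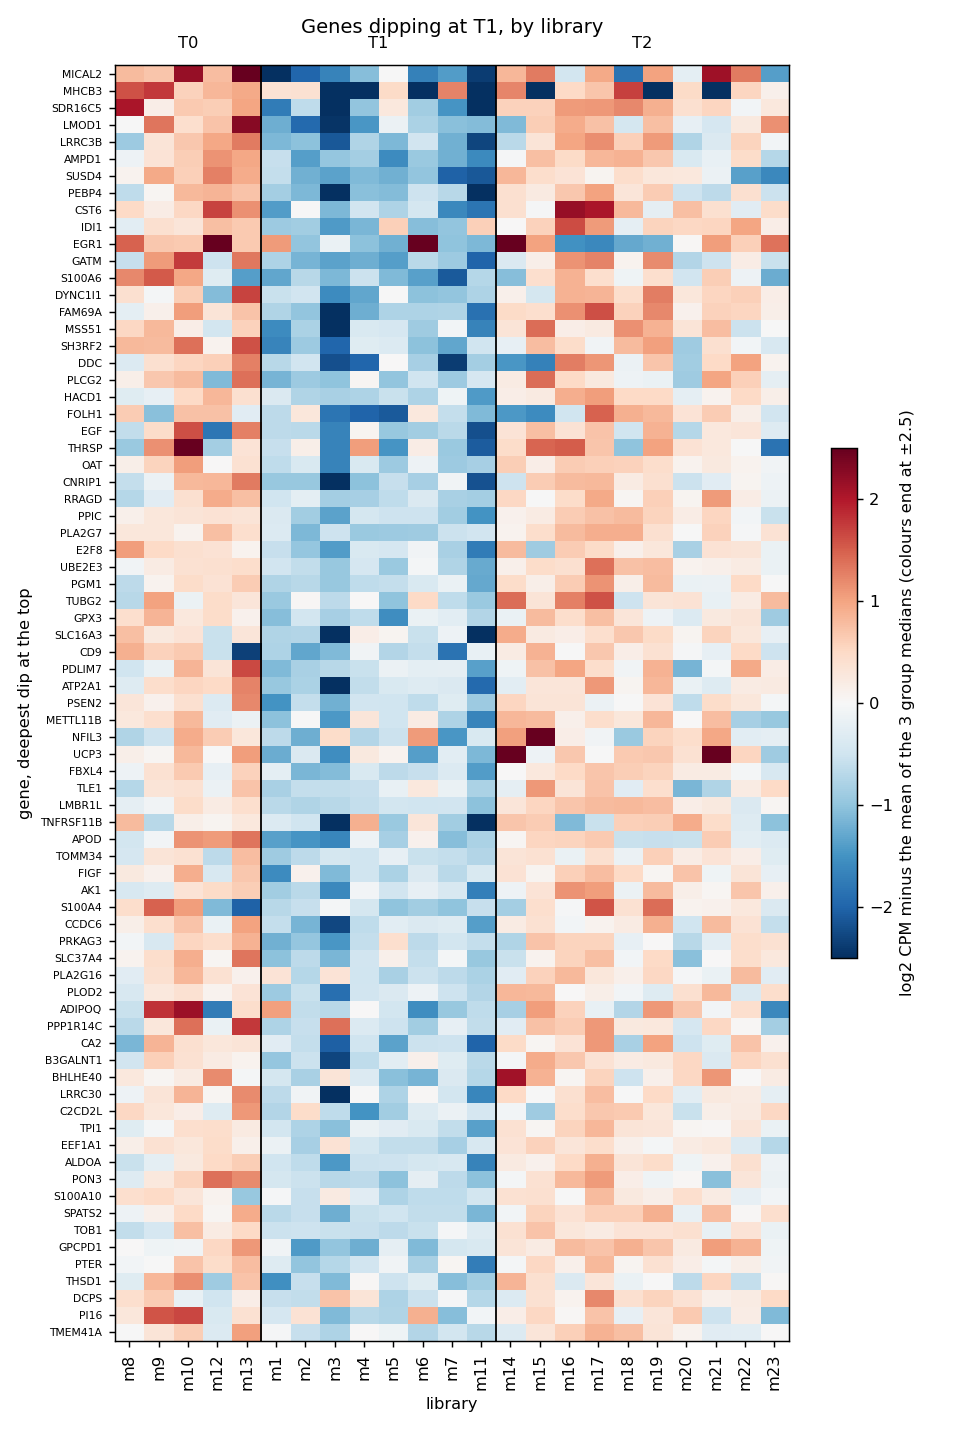
Level of each of the 75 genes (rows, largest dip at the top) in each of the 23 libraries (columns, T0, T1 and T2 in order), as log2 CPM minus the mean of the gene's 3 time point medians, blue for low and red for high. The T1 columns are mostly blue, which the choice of genes fixes, and m3 and m11 hold the lowest value of 24 and 21 genes, while EGR1 is high in the T1 library m6 and S100A4 is low in the T0 libraries m12 and m13.

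Energy metabolism held 12 of the genes, with dips of 0.76 to 1.55. The roles were assigned after the genes were known, so no test was run on a role group. AMPD1 (chromosome 5, 54062569 to 54083314 in the authors' annotation, of a build not given in the sources used here) encodes the muscle AMP deaminase, which removes AMP when ATP is used fast, and had the largest dip of the group. It measured 163, 224, 273, 384 and 348 CPM in the T0 libraries m8, m9, m10, m12 and m13, 59.1 to 118 CPM at T1 (median 83.8, lowest in m11) and 108 to 322 CPM at T2 (median 244, lowest in m23). All 8 T1 libraries lay below the lowest T0 library, while 1 T2 library, m23, lay below the highest T1 library. AK1, the cytosolic adenylate kinase that remakes ATP from ADP, measured 172, 181, 286, 314 and 345 CPM at T0, 69 to 215 CPM at T1 (median 151, lowest in m11) and 204 to 496 CPM at T2 (median 269, lowest in m18). Its T1 libraries overlapped those of T0 and T2.

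GATM, the first enzyme of creatine synthesis, measured 5.12, 16.2, 26.1, 5.30 and 19.2 CPM at T0, 1.83 to 4.77 CPM at T1 (median 3.31, lowest in m11) and 4.55 to 18.4 CPM at T2 (median 8.30, lowest in m20). Its T1 values were all below T0, and the T0 libraries themselves fell into a low pair (m8 and m12) and 3 higher ones. PRKAG3, the gamma subunit of AMP-activated kinase found mainly in fast glycolytic fibres, measured 47, 37.1, 71.1, 66.4 and 89.9 CPM at T0, 17.8 to 65.8 CPM at T1 (median 31.7, lowest in m3) and 29.1 to 80.6 CPM at T2 (median 56.5, lowest in m14), with overlap of T1 with both other time points. MSS51, a muscle protein linked to mitochondrial metabolism, measured 74.1, 91.4, 58.2, 37.6 and 77 CPM at T0, 1.84 to 49.1 CPM at T1 (median 29.1, lowest in m3) and 35.8 to 136 CPM at T2 (median 64.5, lowest in m22). The lowest T1 value was again m3. Over a list of 17 measured genes of ATP buffering, which holds AMPD1, GATM, AK1 and PRKAG3, 4 genes were called lower and 0 higher at T1 than at T0, and 5 were called higher and 2 lower at T2 than at T1. Over all genes the shares called were 3.34% lower and 3.57% higher at T1 than at T0, and 12.6% higher and 15.1% lower at T2 than at T1. AMPD1, GATM, AK1 and PRKAG3 were themselves chosen for these differences.

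The glycolytic enzymes kept by the rule were ALDOA (aldolase), TPI1 (triosephosphate isomerase) and PGM1 (phosphoglucomutase, which links glycogen to glycolysis). ALDOA measured 8311, 10241, 14371, 17249.8 and 18720.0 CPM at T0, 3808 to 9230.1 CPM at T1 (median 8474, lowest in m11) and 11109 to 22528 CPM at T2 (median 14713, lowest in m23). Every T1 library was below every T2 library, while the lowest T0 library, m8, lay within the T1 range. TPI1 measured 1340.3, 1591, 2208, 2233 and 1944 CPM at T0, 644 to 1480.2 CPM at T1 (median 1144, lowest in m11) and 1481 to 2941 CPM at T2 (median 2038, lowest in m23). PGM1 measured 642, 1082, 1391, 1308 and 1569.8 CPM at T0, 417 to 903 CPM at T1 (median 637, lowest in m11) and 905 to 2205 CPM at T2 (median 1251, lowest in m20). In both, T1 lay wholly below T2, by narrow gaps (1480.2 against 1481 CPM in TPI1 and 903 against 905 CPM in PGM1), and overlapped T0 through the low library m8. Over the 33 measured genes of a glycolysis and glycogen list, which holds these 3, 18 were called lower and 2 higher at T1 than at T0, against 3.34% and 3.57% of all genes. At T2, 20 of the list were called higher and 3 lower than at T1, against 12.6% and 15.1% of all genes. The list's median log2 difference was -0.62 between T1 and T0, against -0.02 over all genes, and 0.71 between T2 and T1, against -0.01. Of the 33 genes, 6 passed the 3 thresholds of the rule, so these counts and medians partly restate the choice of genes.

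SLC16A3 (chromosome 11, 985123 to 988276) is the lactate exporter MCT4 of glycolytic fibres. It measured 379, 266, 284, 152 and 275 CPM at T0, 11 to 253 CPM at T1 (median 143, lowest in m3) and 193 to 426 CPM at T2 (median 286, lowest in m23). The T1 libraries m3 and m11, at 11 and 29.9 CPM, were far below the other 6, which started at 133 CPM, and the low T0 library m12 lay within the T1 range. OAT, a mitochondrial enzyme of ornithine metabolism, measured 22.9, 30.5, 42.7, 20.9 and 27.1 CPM at T0, 6.39 to 18.9 CPM at T1 (median 12.4, lowest in m3) and 19.4 to 32 CPM at T2 (median 26.3, lowest in m23), with no overlap of T1 with either other time point. UCP3, a mitochondrial carrier of skeletal muscle, measured 26.8, 25.1, 42.7, 24.2 and 50.3 CPM at T0, 8.23 to 28.9 CPM at T1 (median 15, lowest in m3) and 13.1 to 197 CPM at T2 (median 36.9, lowest in m23). The T2 libraries m21 and m14, at 197 and 164 CPM, stood well above all others, of which none passed 50.3 CPM. SLC37A4, the glucose-6-phosphate transporter of the endoplasmic reticulum, had a dip of 0.81 and ran from 13.2 CPM in the lowest T1 library to 74.5 CPM in the highest T0 library.

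Calcium handling and signalling held 6 genes. ATP2A1 (chromosome 13, 19914624 to 19930125) encodes SERCA1, the calcium pump of fast fibres. It measured 3112, 5219, 5609.7, 5456 and 9183 CPM at T0, 39.1 to 3104 CPM at T1 (median 2373, lowest in m3) and 3111 to 8184 CPM at T2 (median 4473, lowest in m21). T1 did not overlap either other time point, but the gap was narrow: the highest T1 library, m6, read 3104 CPM, against 3111 CPM in m21 and 3112 CPM in m8. The difference between T1 and T0 was not called (adjusted p = 0.0757 by edgeR). Library m3 stood far below the next lowest T1 library, m11, at 1002 CPM. Of the transcripts that the authors' tables name, ATP2A1 had 2 at a mean of 1 CPM or above, and no other of the 75 genes had more than 1. Unnamed transcripts were not analysed here. The 2 transcripts had median levels of 2726, 1192 and 1903 CPM (ATP2A1-201) and 2730, 1182 and 2416 CPM (ATP2A1-202) at T0, T1 and T2. Over the 48 measured genes of a calcium and excitation list, which holds ATP2A1, 3 were called lower and 1 higher at T1 than at T0, and 7 were called higher and 8 lower at T2 than at T1. The shares over all genes were 3.34% lower and 3.57% higher at T1 than at T0, and 12.6% higher and 15.1% lower at T2 than at T1. ATP2A1 was itself chosen for these differences and is among the 7 called higher at T2 than at T1.

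S100A4 and S100A6 encode small calcium-binding proteins, and S100A10 encodes a protein of the same S100 family. All are also made by fibroblasts and vessel cells. S100A6 measured 11, 13.9, 9.36, 3.82 and 1.74 CPM at T0, 1.01 to 3.24 CPM at T1 (median 2.12, lowest in m7) and 1.94 to 8.80 CPM at T2 (median 5.38, lowest in m23). S100A4 measured 7.94, 16.2, 12.1, 2.65 and 1.35 CPM at T0, 2.82 to 5.61 CPM at T1 (median 3.71, lowest in m7) and 3.17 to 17.6 CPM at T2 (median 6.64, lowest in m14). In both genes m12 and m13 were the lowest T0 libraries, with m13 within or below the T1 range, whereas m13 was the highest T0 library for ATP2A1 and ALDOA. The same T0 libraries m12 and m13 had fibroblast scores (the mean log2 CPM of a fibroblast marker list) of 2.62 and 2.88, against 3.84 to 4.46 in m8, m9 and m10. PPP1R14C, an inhibitor of protein phosphatase 1, measured 7.66, 14.9, 31.9, 10.9 and 42 CPM at T0, 6.67 to 32 CPM at T1 (median 8.35, lowest in m6) and 6.69 to 25.9 CPM at T2 (median 14.6, lowest in m23), and its highest T1 library was m3, in which 24 of the 75 genes had their lowest value. PLCG2, a phospholipase C of signalling cascades, had a dip of 1.12 with a T1 median of 1.24 CPM.

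Cytoskeleton and transport genes were 5, and MICAL2 had the largest dip of all 75. MICAL2 (chromosome 7, 81037992 to 81153316) oxidises actin and so alters filaments and the actin-sensing SRF programme. It measured 19, 17.8, 50.1, 18.7 and 87.2 CPM at T0, 1.47 to 10.8 CPM at T1 (median 3.32, lowest in m1) and 2.96 to 47.8 CPM at T2 (median 20.3, lowest in m18). All T1 libraries were below all T0 libraries, the T0 libraries m10 and m13 were well above the other 3, and T2 ranged widely and overlapped T1. LMOD1, an actin nucleator best known from smooth muscle, measured 11.9, 30.4, 16.2, 19.9 and 58.6 CPM at T0, 2.10 to 10.8 CPM at T1 (median 5.36, lowest in m3) and 5.51 to 26.8 CPM at T2 (median 16.4, lowest in m14). Its T1 values lay below T0 and overlapped T2. The 11 measured smooth muscle and pericyte markers, LMOD1 among them, summed to 1126 to 2829 CPM at T0, 1468 to 3450 CPM at T1 and 1247 to 2397 CPM at T2. DES alone made up most of these sums, with 935 to 2646 CPM at T0, 1296 to 3354 CPM at T1 and 1117 to 2236 CPM at T2. The sums therefore say little about the other markers of the list, and the part of these cells in LMOD1's level was not tested.

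PDLIM7, a Z-disc scaffold, measured 53.8, 68.4, 138, 95.1 and 240.0 CPM at T0, 29.6 to 69.4 CPM at T1 (median 49.6, lowest in m11) and 34.2 to 151 CPM at T2 (median 95.1, lowest in m20). DYNC1I1, a dynein intermediate chain, and TUBG2, a gamma-tubulin, had dips of 1.27 and 0.95 with T1 medians of 2.21 and 1.95 CPM. Over the 63 measured genes of a cytoskeleton and Z-disc list, which holds MICAL2, LMOD1 and PDLIM7, 4 were called lower and 1 higher at T1 than at T0, against 3.34% and 3.57% of all genes. At T2, 8 of the list were called higher and 23 lower than at T1, against 12.6% and 15.1% of all genes. The list's median log2 difference was -0.02 at T1 against T0 and -0.30 at T2 against T1. MICAL2, LMOD1 and PDLIM7 were themselves chosen for these differences. They are among the 4 called lower at T1 and among the 8 called higher at T2, so these counts partly restate the choice of genes.

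Lipid and fat genes were 10, with dips of 0.73 to 1.80. SDR16C5, a retinol dehydrogenase, measured 18.6, 5.03, 7.10, 6.89 and 8.94 CPM at T0, 0.613 to 5.34 CPM at T1 (median 1.86, lowest in m3) and 4.25 to 10.4 CPM at T2 (median 6.66, lowest in m22). One T1 library, m5, lay just above the lowest T0 library. PLA2G7 (chromosome 20, 45257576 to 45274173), the secreted phospholipase that breaks down platelet-activating factor, measured 11.6, 11.7, 10.2, 16.2 and 12.8 CPM at T0, 4.32 to 7.53 CPM at T1 (median 5.83, lowest in m2) and 9.32 to 18.1 CPM at T2 (median 12.9, lowest in m22). Its T1 libraries overlapped neither other time point, while T0 and T2 covered much the same range. IDI1, an enzyme of the cholesterol pathway, measured 23.4, 37, 34.6, 47.2 and 44.3 CPM at T0, 10.5 to 42.7 CPM at T1 (median 14.5, lowest in m3) and 24.1 to 86.7 CPM at T2 (median 41.1, lowest in m18), with the T1 libraries m11 and m5, at 42.7 and 42.3 CPM, within the range of the other time points.

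HACD1, an enzyme of very long chain fatty acid synthesis that muscle expresses strongly, had a dip of 1.12, and GPCPD1, which splits glycerophosphocholine, had one of 0.73. ADIPOQ (the fat cell hormone adiponectin) and THRSP (a regulator of lipid synthesis) had dips of 0.80 and 1.09 and varied widely before training. ADIPOQ measured 2.33, 12.5, 15.7, 0.954 and 4.78 CPM at T0, 1.10 to 7.25 CPM at T1 (median 2.22, lowest in m6) and 1.06 to 7.47 CPM at T2 (median 4.01, lowest in m23). Of 10 adipocyte markers listed, 5 had an identifier, none was at 0, and together they summed to 82.7 to 181 CPM at T0, 118 to 329 CPM at T1 and 127 to 281 CPM at T2, with medians of 154, 169 and 175 CPM. FABP4 and LPL made up most of these sums, and ADIPOQ, PPARG and LIPE the small rest. The highest T1 sum, in m11, held 197 CPM of LPL, 123 CPM of FABP4 and 2.21 CPM of ADIPOQ. The sums are therefore mainly levels of FABP4 and LPL. Other members were APOD, a lipid-binding secreted protein, PON3, a paraoxonase, and PLA2G16, a phospholipase of fat cells.

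Secreted, surface and matrix genes were 12. SUSD4, a regulator of complement, measured 11.7, 21.5, 16.8, 26.6 and 21.2 CPM at T0, 2.46 to 7.25 CPM at T1 (median 4.73, lowest in m11) and 3.56 to 19.9 CPM at T2 (median 13.4, lowest in m23). Every T1 library lay below every T0 library. CST6, a cysteine protease inhibitor, measured 6.43, 5.18, 6.52, 14.8 and 10.1 CPM at T0, 1.20 to 4.52 CPM at T1 (median 2.31, lowest in m11) and 3.69 to 20.9 CPM at T2 (median 6.13, lowest in m22). MHCB3 (chromosome 20, 30832340 to 30835411) carries the symbol of a major histocompatibility complex class I gene, a family with near-identical copies among which reads cannot be divided with certainty. It measured 398, 446, 197, 233 and 254 CPM at T0, 7.26 to 309 CPM at T1 (median 90.9, lowest in m11) and 4.06 to 431 CPM at T2 (median 184, lowest in m21). Its libraries fell into 2 ranges: m3, m4, m6 and m11 at T1 and m15, m19 and m21 at T2 read 4.06 to 13.8 CPM, and every other library read 144 CPM or more, with no T0 library in the low range.

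EGF, a growth factor made as a membrane precursor, measured 16.6, 35, 78.1, 7.21 and 61.4 CPM at T0, 5.49 to 27 CPM at T1 (median 15, lowest in m11) and 15.6 to 46.7 CPM at T2 (median 32.1, lowest in m20). Its only named transcript, EGF-201, had medians of 18.3 CPM at T0, 6.77 CPM at T1 and 11.8 CPM at T2, so a large share of the gene's counts lay outside it. FIGF (vascular endothelial growth factor D, a lymphatic growth factor), TNFRSF11B (osteoprotegerin, a decoy receptor), GPX3 (the secreted glutathione peroxidase) and CD9 (a tetraspanin) had dips of 0.83, 0.84, 0.95 and 0.94. PLOD2, which hydroxylates lysines of collagen, had a dip of 0.81, and PI16, a marker of fibroblasts, THSD1, an endothelial surface protein, and FOLH1, a glutamate carboxypeptidase, had dips of 0.72, 0.73 and 1.12. Over 53 measured genes of a non-collagen matrix list, which holds PLOD2, 7 were called lower and 0 higher at T1 than at T0, against 3.34% and 3.57% of all genes. At T2, 3 of the list were called higher and 4 lower than at T1, against 12.6% and 15.1% of all genes. PLOD2 was itself chosen for these differences and is among the 7 called lower at T1 and the 3 called higher at T2. The endothelial markers summed to 275 to 375 CPM at T0, 225 to 358 CPM at T1 and 199 to 321 CPM at T2.

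Transcription factors and cofactors were 6. EGR1 measured 9.01, 5.13, 5.05, 30.8 and 5.01 CPM at T0, 1.30 to 115 CPM at T1 (median 1.53, lowest in m5) and 0.962 to 41.9 CPM at T2 (median 4.02, lowest in m17), so single libraries stood far above the rest of their time point. NFIL3 and BHLHE40 are repressors tied to the circadian clock. NFIL3 had medians of 9.0 CPM at T0, 4.83 CPM at T1 and 9.17 CPM at T2. BHLHE40 had medians of 30.5 CPM at T0, 17.8 CPM at T1 and 34.0 CPM at T2. E2F8, a repressor of the cell cycle E2F family, measured 24.2, 16.5, 15.4, 15.1 and 12.5 CPM at T0, 3.41 to 11 CPM at T1 (median 7.17, lowest in m11) and 6.22 to 20.3 CPM at T2 (median 14.4, lowest in m15), with T1 wholly below T0. TLE1, a corepressor, and TOB1, an antiproliferative cofactor, had dips of 0.85 and 0.74.

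Protein synthesis and turnover genes were 9. SH3RF2, a ubiquitin ligase, measured 5.49, 5.41, 8.21, 3.29 and 9.50 CPM at T0, 0.701 to 2.47 CPM at T1 (median 1.52, lowest in m3) and 1.62 to 6.45 CPM at T2 (median 3.53, lowest in m20), with T1 wholly below T0. RRAGD, a Rag GTPase that brings nutrient signals to mTORC1, measured 4.38, 5.89, 9.63, 13.9 and 12.2 CPM at T0, 3.94 to 6.11 CPM at T1 (median 4.35, lowest in m3) and 6.50 to 15.3 CPM at T2 (median 9.07, lowest in m23), with T1 wholly below T2. EEF1A1, a translation elongation factor with many near-identical copies in mammalian genomes among which reads cannot be divided with certainty, measured 716, 843, 793, 887 and 710.3 CPM at T0, 362 to 827 CPM at T1 (median 449.9, lowest in m2) and 394 to 959 CPM at T2 (median 763, lowest in m23). UBE2E3, a ubiquitin-conjugating enzyme, PPIC, a cyclophilin, PSEN2, a gamma-secretase subunit, FBXL4, a mitochondrial F-box protein, TOMM34, a cochaperone of mitochondrial import, and DCPS, the scavenger decapping enzyme, had dips of 0.73 to 1.01.

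The other 15 genes have roles that are less known in muscle. LRRC3B, a leucine-rich repeat membrane protein, measured 2.17, 5.27, 6.79, 8.27 and 10.4 CPM at T0, 0.758 to 2.96 CPM at T1 (median 1.86, lowest in m11) and 2.45 to 9.54 CPM at T2 (median 5.73, lowest in m20). PEBP4 (chromosome 2, 51567951 to 51753281), a phosphatidylethanolamine-binding family protein, measured 69, 111, 188, 194 and 177 CPM at T0, 4.03 to 75.3 CPM at T1 (median 51.4, lowest in m3) and 68.6 to 214 CPM at T2 (median 136, lowest in m21). FAM69A (chromosome 5, 72044906 to 72070172), an endoplasmic reticulum protein of a kinase-like family, measured 7.86, 10.2, 19.3, 11.7 and 15.3 CPM at T0, 0.876 to 5.49 CPM at T1 (median 5.03, lowest in m3) and 9.99 to 28.9 CPM at T2 (median 13.8, lowest in m20). In FAM69A, T1 lay wholly below both other time points, and m3 was the lowest library in FAM69A and in PEBP4 alike.

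SPATS2 (chromosome 6, 67173238 to 67239038) measured 15.5, 18.5, 23.9, 17.5 and 32.4 CPM at T0, 7.18 to 12 CPM at T1 (median 11, lowest in m3) and 14.8 to 31.6 CPM at T2 (median 23.8, lowest in m20). LMBR1L, a lipocalin receptor type membrane protein, measured 12.1, 13.3, 19.6, 16.4 and 19.1 CPM at T0, 6.88 to 10.3 CPM at T1 (median 9.08, lowest in m11) and 11 to 24.8 CPM at T2 (median 19, lowest in m22). Neither overlapped at T1 with another time point. LRRC30 (chromosome 8, 32265708 to 32266613), a leucine-rich repeat protein, measured 7.66, 10.6, 15.3, 8.69 and 19.1 CPM at T0, 1.40 to 8.62 CPM at T1 (median 5.70, lowest in m3) and 6.94 to 14.4 CPM at T2 (median 9.85, lowest in m20). The remaining members were CNRIP1, which binds cannabinoid receptor 1, DDC, an aromatic amino acid decarboxylase, CA2, a carbonic anhydrase, METTL11B, an N-terminal methyltransferase, B3GALNT1, a glycosyltransferase, and CCDC6, C2CD2L, PTER and TMEM41A.

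**Figure D2:**
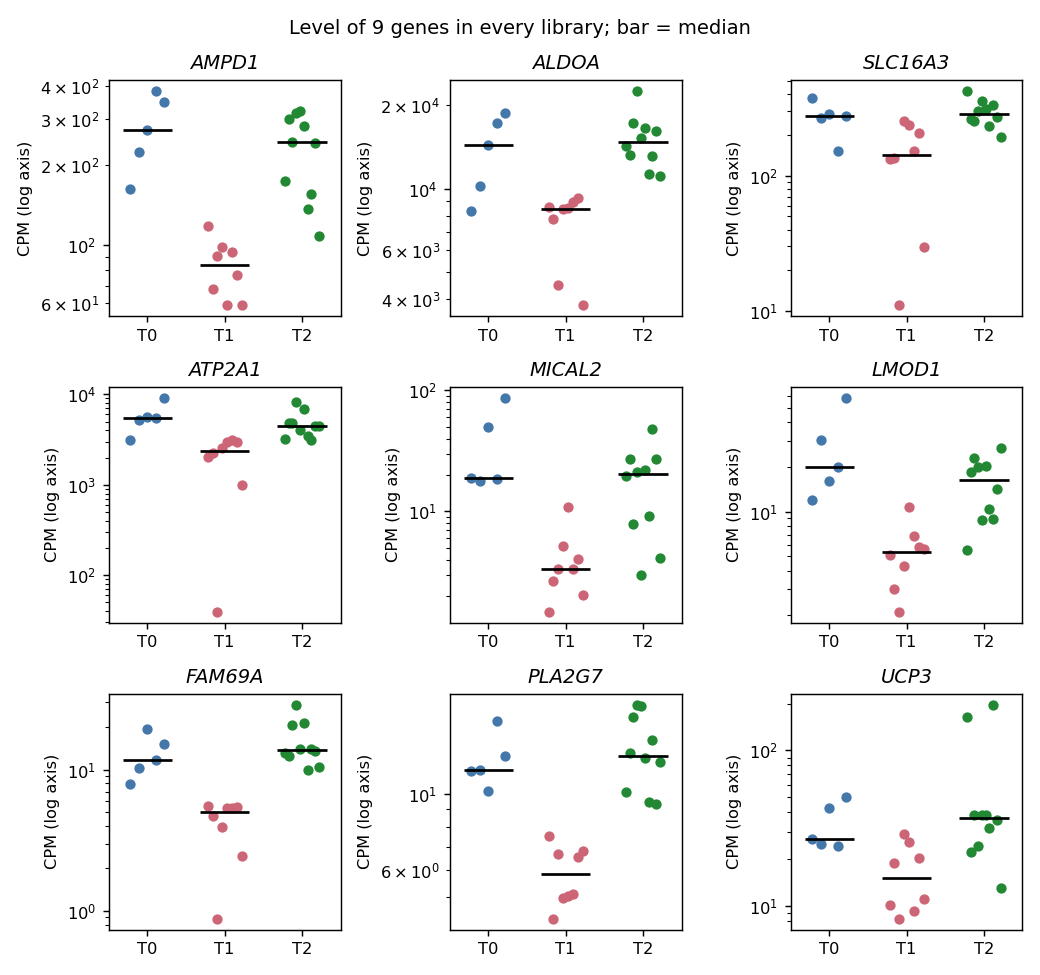
CPM (log axis) of 9 genes in every library at T0 (5 libraries), T1 (8) and T2 (10), each point a library and each bar a median, with a scale of its own for each gene. In ATP2A1, FAM69A and PLA2G7 every T1 library lies below every T0 and T2 library, while MICAL2 at T2 spans 2.96 to 47.8 CPM and the T2 libraries m21 and m14 stand at 197 and 164 CPM in UCP3.

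The rule did not use the difference between T2 and T0 itself, but it used the medians of both in these same libraries. The counts for this comparison are therefore given as a description, and nothing is read from their distance to the shares over all genes. By edgeR 0 of the 75 genes were called higher at T2 than at T0, against 6.73% of all genes, and 0 were called lower, against 9.30%. At an unadjusted p under 0.05, 5 of the 75 differed, all lower at T2, against 32.1% of all genes in either direction. By DESeq2 1 gene was called lower and 0 higher, and by limma's voom with sample weights 2 were called lower (SH3RF2 and PI16) and 0 higher. The median log2 difference of the 75 was -0.07, against -0.03 over all genes, and the values ran from -1.03 for MICAL2 to 0.83 for UCP3. The rule asked both time points to stand above T1 and set no bound on the difference between them.

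The 5 genes at an unadjusted p under 0.05 were SH3RF2, SUSD4, PI16, LMOD1 and APOD. SH3RF2 had a log2 difference of -0.74 ± 0.29 (SE) for T2 minus T0, with an adjusted p of 0.0741 by edgeR's quasi-likelihood test. SUSD4 had a difference of -0.69 ± 0.29 and an adjusted p of 0.103 by the same edgeR test, and PI16 one of -0.79 ± 0.34 and 0.111. LMOD1 and APOD had differences of -0.81 ± 0.37 and -0.66 ± 0.31, with adjusted p of 0.139 and 0.146 by edgeR. Without the T0 library m13 the difference of LMOD1 was -0.32 (adjusted p = 0.602 by edgeR), and without the T0 library m10 that of PI16 was -0.50 (adjusted p = 0.371). A p that misses the threshold does not show that the levels were equal: the 95% interval of T2 minus T0 lay within 0.7 of 0 for 24 of the 75 genes and reached past it for 51. The intervals were widest for EGR1 and MHCB3. PLA2G7 had a difference of 0.11 ± 0.16 and AMPD1 one of -0.28 ± 0.24.

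**Figure D3:**
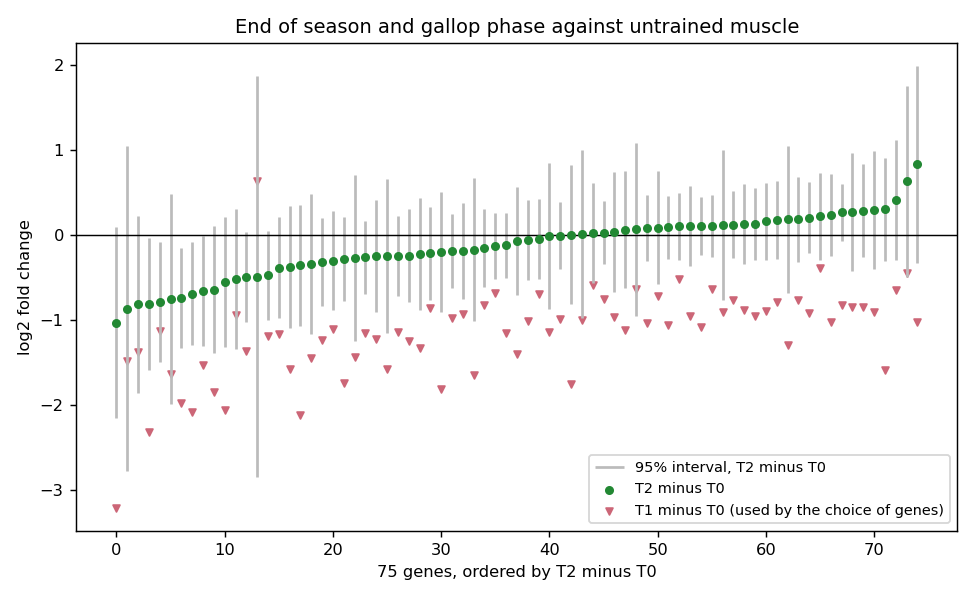
Fitted log2 fold change of T2 over T0 (circles) with its 95% interval (bars), and of T1 over T0 (triangles), for the 75 genes ordered by T2 minus T0. T2 minus T0 runs from -1.03 (MICAL2) to 0.83 (UCP3) and 51 intervals reach past 0.7 in size, while the triangles lie below 0 for 74 genes, which the choice of genes fixes.

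Taken as a whole, the genes' mean level, as the mean log2 CPM after centring each gene on the mean of its 3 time point medians, was 0.01 to 0.69 at T0, -1.41 to -0.46 at T1 and -0.18 to 0.68 at T2. T1 did not overlap either other time point, which the rule favours. The share of all counts that fell on the 75 genes was 2.24% to 3.81% at T0, 0.495% to 1.71% at T1 and 1.92% to 3.39% at T2. Beside it, the fast minus slow score, the mean log2 CPM of the fast fibre list minus that of the slow fibre list, was 3.21 to 4.95 at T0, -3.53 to 2.09 at T1 and 2.17 to 4.23 at T2. Of the 15 measured genes of the fast fibre list, 8 passed the 3 thresholds of the rule. A low score at T1 therefore partly restates the same choice. The 2 T1 libraries with the lowest score were m3 at -3.53 and m11 at -0.54, and 24 of the 75 genes were lowest of all libraries in m3 and 21 in m11. The T2 library with the lowest score, m23 at 2.17, also had the lowest mean level of the 75 genes at T2, and the T0 library with the highest score, m13 at 4.95, held the highest value of 20 of the 75 genes.

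**Figure D4:**
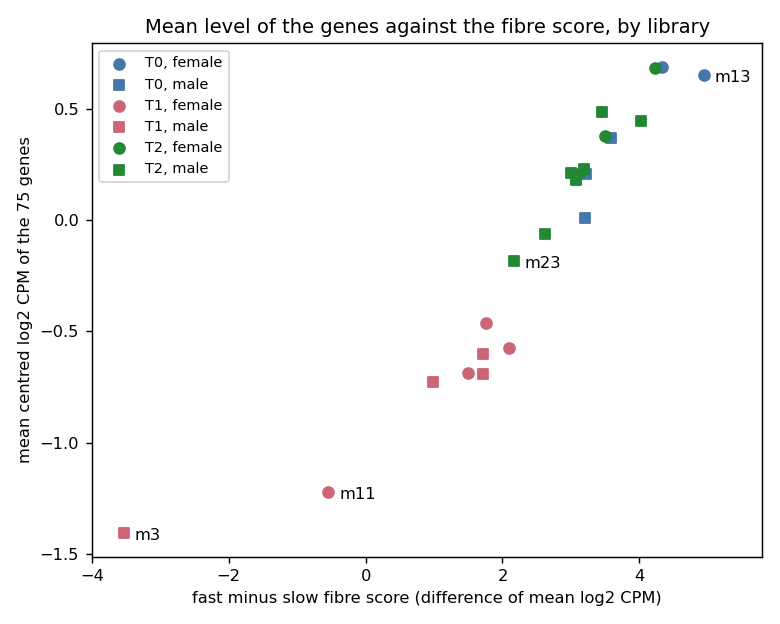
Mean centred log2 CPM of the 75 genes (vertical) against the fast minus slow score (horizontal, a difference of mean log2 CPM) in the 23 libraries, with time points by colour and sexes by symbol. The T1 libraries lie at low values of both, with m3 and m11 lowest, and m23 is the lowest T2 library on both axes. On the score the highest T1 library, m4 at 2.09, lies close to m23 at 2.17.

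Whether single genes moved with the fibre score inside time points was tested by a slope in a model that also held the time point, which removes the differences between time points that the rule used. The slope is the change in log2 CPM for each unit of the fast minus slow score. ATP2A1 belongs to the score and is not counted, which leaves 74 genes. By edgeR's quasi-likelihood test 18 of the 74 had a positive slope at an adjusted p under 0.05, against 1.69% of the 11513 genes outside the score, and 0 had a negative one, against 3.45%. At an unadjusted p under 0.05, 37 genes had a positive and 1 a negative slope, against 7.93% and 11.3% of all genes. DESeq2 called 23 of the 74 genes, against 6.87% of all genes in either direction, and voom 15, against 1.34%. The slope was positive for 65 of the 74, with a median of 0.19, against 0.00 over all genes.

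LRRC30 had a slope of 0.50 ± 0.05 (SE) with an adjusted p of 1.64e-06 by edgeR. PEBP4 had one of 0.69 ± 0.09 and FAM69A one of 0.51 ± 0.06. SLC16A3, the lactate exporter, had a slope of 0.70 ± 0.11 with an adjusted p of 1.61e-04 by edgeR, and CNRIP1 one of 0.54 ± 0.09. The other genes called were CCDC6, MSS51, AK1, OAT, ALDOA, LRRC3B, SPATS2, EGF, PPIC, TPI1, FBXL4, METTL11B and CA2, with slopes of 0.17 to 0.62. Of the 18, 9 were among the 15 genes with less known roles, 6 among the 12 of energy metabolism (SLC16A3, MSS51, AK1, OAT, ALDOA and TPI1), 2 among the 9 of protein synthesis and turnover and 1 among the 12 secreted and surface genes. The 10 lipid, 5 cytoskeleton, 5 counted calcium and 6 transcription genes gave 0. Differences between these groups were not tested.

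The depth of the dip and the slope were not the same ordering: of the 10 genes with the largest dip, 2 had a called slope (LRRC3B and PEBP4). AMPD1 had a slope of 0.07 with an adjusted p of 0.633 by edgeR, and SUSD4 one of 0.10 with 0.650. PLA2G7 had a slope of -0.04 with an adjusted p of 0.785, although its T1 libraries were wholly below T0 and T2. MICAL2 had a slope of 0.35 with an adjusted p of 0.350. The difference between these slopes and those of the called genes was not tested.

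Without m3, the library farthest along the score, 19 of the 74 genes were called, all positive, against 0.722% of genes called positive, while SLC16A3 and MSS51 lost their call at adjusted p of 0.128 and 0.330 by edgeR. Their slopes without m3 were 0.55 and 0.38, and those of AK1, ALDOA and TPI1, still called, were 0.50, 0.41 and 0.33, against 0.30, 0.24 and 0.17 with it. Without m3 and m11 together, an alternative chosen after seeing the data, 6 were called, against 0.28% of genes called positive. Without 1 library at a time the count ran from 12, without the T1 library m4, to 21, without the T2 library m17.

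**Figure D5:**
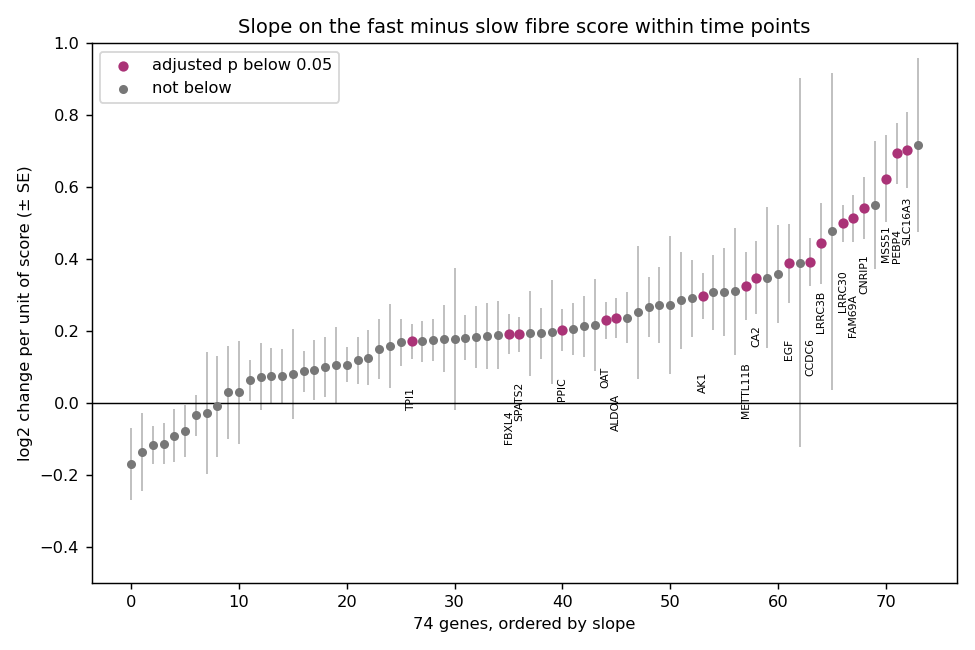
Slope of each of 74 genes on the fast minus slow score within time points (log2 change per unit of score, bars are standard errors), ordered by slope. The 18 genes with an adjusted p under 0.05 are purple and named, from TPI1 at 0.17 to SLC16A3 at 0.70, and 65 of the 74 slopes lie above 0.

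The same kind of slope was fitted on the fibroblast score, since PI16, S100A4, S100A6 and CD9 are also made by cells between the fibres. The score's medians were 3.84 at T0, 2.84 at T1 and 3.35 at T2. By edgeR 2 of the 75 genes had a positive slope at an adjusted p under 0.05, against 2.40% of all genes, and 0 a negative one, against 1.20%, so the count was near that of all genes. At an unadjusted p under 0.05 there were 11 positive and 1 negative, against 10.3% and 10% of all genes. PI16 had a slope of 1.0 ± 0.20 with an adjusted p of 0.0064 by edgeR and METTL11B one of 0.91 ± 0.19 with 0.0084. S100A6, S100A4 and CD9 did not pass, with adjusted p of 0.0834, 0.0922 and 0.0695 by edgeR. The 12 measured fibroblast markers summed to 129 to 471 CPM at T0, 93.2 to 223 CPM at T1 and 111 to 347 CPM at T2, and none was at 0.

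Sex was compared in a model with the time points. By edgeR 0 of the 75 genes and 0 of all 11545 differed between females and males (0%), and voom and DESeq2 called 0 of the 75. At an unadjusted p under 0.05, 15 of the 75 genes differed, all higher in females, against 6.23% of all genes in either direction. The log2 difference, female minus male, was positive for 64 of the 75, with a median of 0.23, against 0.00 over all genes. The largest by p were PLCG2 at 0.87 ± 0.20 (SE) and APOD at 0.83 ± 0.19, each with an adjusted p of 0.373 by edgeR. The fast minus slow score was 4.34 and 4.95 in the females and 3.21, 3.22 and 3.59 in the males of T0, -0.54 to 2.09 in the females and -3.53 to 1.72 in the males of T1, and 3.10 to 4.23 in the females and 2.17 to 4.03 in the males of T2. Its part in the difference between the sexes was not tested.

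Whether the dip itself differed between the sexes was tested by an interaction term, the T1 level against the mean of T0 and T2 in females minus that in males. By edgeR 0 of the 75 genes were called, against 0% of all genes, and DESeq2 and voom called 0 of the 75. At an unadjusted p under 0.05 there were 6, with 5 lower and 1 higher, against 2.62% of all genes. The interaction was negative, a deeper dip in females, for 58 of the 75, with a median of -0.31, against -0.01 over all genes. PPP1R14C had a difference of -2.08 ± 0.48 (SE) and PTER one of -1.20 ± 0.29, each with an adjusted p of 1.0 by edgeR. Without m3, where PPP1R14C was highest at T1, its difference was -1.37. T0 holds 2 females and T2 holds 3.

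Over the libraries, after the mean of each time point was removed from each gene, the 2775 pairs of the 75 genes had a median correlation of 0.21, against 0.00 over all pairs of genes tested, and 16.2% of the pairs were above 0.5 while 23.5% were below 0. These correlations share libraries and normalization and are given as a description over 23 libraries. The median was 0.21 without m3 as well. FAM69A, LRRC30 and AK1 had the highest median correlation with the other genes, at 0.44, 0.43 and 0.43. BHLHE40 and S100A10 had the lowest, both at -0.15, followed by EGR1 at -0.08 and CD9 at -0.05.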

How the data were processed

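RNA sequencing libraries of 23 horse gluteus medius biopsies were analysed at the gene level, and transcripts only for the 75 genes. The deposited tables hold expected counts that the authors estimated per gene and transcript, which are whole numbers in the files, and the totals per library give the depth. FastQC, STAR, RSEM and DESeq2 appear in the submitters' processing notes, with no version. Libraries were read over 50 cycles in 6 technical repetitions, per the labels. Neither the pooling of these repetitions nor the genome build is given in the sources used here. Symbols and coordinates came from the authors' deposited comparison tables. Their fold changes were not used, since the labels do not say which time point each letter in those tables stands for.

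Genes were kept by edgeR's filterByExpr (minimum count 10, minimum total 15), which left 11545 genes with 99.9% of all counts. TMM scaling, log2 CPM with a prior count of 2, and the robust quasi-likelihood F test of edgeR 4.0.16 (R 4.3.3) were used, with 1 model of the 3 time points and Benjamini-Hochberg adjustment over all genes tested at 0.05. The standard error of a log2 difference was its size divided by the square root of F. Sex was added to the time points, or crossed with them for the interaction. The slopes used the time points and a score, and genes of the score's lists were left out of the counts. limma 3.58.1 (voom with sample weights) and DESeq2 1.42.0 were alternatives, beside other scaling, no filter, group means, a prior count of 0.5, sex as a covariate, T0 and T2 alone, and each library left out. The scripts were tested on simulated counts.

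The 75 genes, the role groups, the gene lists and the marker lists were chosen with earlier results of these data known. Genes whose values are given are the 10 with the largest dip, up to 4 of each pathway list, the 5 with the highest T0 median, the genes at the threshold, up to 5 called genes in each tested comparison and genes with several transcripts. Any other gene given with values was chosen after its values were seen.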

Additional observations from a re-analysis of the deposited data

Results flagged for a closer look

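Each of the 75 genes was checked at each time point for a library far from the others. Dixon's test at 95% was run on log2 CPM, and it flags about 1 in 20 groups by chance. The values below are given in CPM. Of 225 groups 12 were flagged (5.33%), which is near that share, and 7 of the 12 were in the T1 library m3.

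In m3 the flagged values were 4.03 CPM for PEBP4 (the next lowest T1 library, m11, had 19.1 CPM), 0.876 CPM for FAM69A (2.46 CPM in m11), 1.84 CPM for MSS51 (16.2 CPM in m11) and 39.1 CPM for ATP2A1 (1002 CPM in m11). PLOD2 at 5.52 CPM (10.9 CPM in m1) and B3GALNT1 at 0.788 CPM (2.15 CPM in m1) were also low in m3. PPP1R14C was high there, at 32 CPM against 10.6 CPM in the next highest T1 library, m7. The fast minus slow score of m3 was -3.53, and its part in these values was not tested.

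EGR1 read 115 CPM in the T1 library m6, against 6.68 CPM in the next highest, m1. At T2, PDLIM7 read 34.2 CPM in m20, against 70.8 CPM in the next lowest, m14, and NFIL3 read 52.0 CPM in m15, against 15.1 CPM in the next highest, m14. At T0, CA2 read 5.82 CPM in m8, against 15.7 CPM in the next lowest, m12, and BHLHE40 read 59.6 CPM in m12, against 31.7 CPM in the next highest, m8.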

How the results depend on the processing

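Direction was followed through the alternative runs only for single genes named for T2 minus T0, for sex, for the dip by sex and for the slopes. None of these reversed its direction. The direction of the other genes was not followed. The rule gave 62 to 88 genes with 1 library left out, of which 58 to 73 were among the 75, and 61 without m3 and m11. By group means in place of medians it gave 77 genes, of which 57 were among the 75. Leaving out m3 and m11, leaving out m3 and m12, and thinning counts to the smallest library were chosen after seeing the data. Genes called lower at T2 than at T0 numbered 0, but 1 by DESeq2, 2 by voom, 2 without m3 and m12, and 0 to 2 with 1 library left out (2 without m12, 1 without m19). Over all genes, 777 were called higher at T2, against 1353 by voom, 1520 without m3 and m12, 417 without m9 and 306 without m13. All genes called lower at T2 numbered 1074, against 644 without m8, 658 without m9, 694 without m10 and 680 without m13. Genes with a slope on the fibre score numbered 18, but 6 without m3 and m11, and 12 to 21 with 1 library left out. Over all genes such slopes numbered 592, against 154 by voom, 129 without m3, 142 without m3 and m12, 50 without m3 and m11 and 947 without m17. TPI1 lost its slope call in 12 of the 23 such fits. Slopes on the fibroblast score numbered 2, but 8 by DESeq2, 1 without m3 and m12 (PI16 lost its call), and 2 to 5 with 1 library left out (5 without m8, 4 without m13, 4 without m14, 5 without m16). Over all genes those slopes numbered 415, against 720 by DESeq2, 124 without m3 and m12 and 199 without m12. Counts over the members under the other settings stayed within 1.5 times. No paired analysis was possible because the labels do not say which libraries, if any, came from the same horse. Depth limits the genes with T1 medians of 1 to 3 CPM, such as GPX3, FIGF, DCPS, DDC and PLCG2.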

Other observations

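Among the 75 genes, 5 pairs lay within 500 kb of each other in the authors' annotation, and the correlations given for them are over 23 libraries after the time point means were removed. S100A4 and S100A6 on chromosome 5 were 7.78 kb apart, with a correlation of 0.78. LMBR1L and SPATS2 on chromosome 6 were 271 kb apart, with a correlation of 0.64, and ALDOA and ATP2A1 on chromosome 13 were 293 kb apart, with a correlation of 0.64. SLC37A4 and C2CD2L on chromosome 7 were 79.2 kb apart, with a correlation of 0.38. PON3 and DYNC1I1 on chromosome 4 were 394 kb apart, with a correlation of -0.03. The pairs share libraries and normalization, and closeness on the chromosome was not tested as a factor.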
